A study of Schmidtea polychroa with 24 samples.

Results

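The genes described here are 200 of the 22365 assembler genes of Schmidtea polychroa whose level climbed late in the first week of development, being low in the first days, partly up at 96 h after cocoon deposition and highest at 168 h. They were chosen on measured values of these same libraries. The level of a gene was the authors' TMM-scaled signal summed over its isoforms. A member had a signal of at least 10 in each 168 h library, its 4 h, 24 h and 32 h means were each under 0.1 of its 168 h mean, its 96 h mean lay between 0.1 and 0.25 of it, and no other time had a higher mean. The 60 most abundant genes were set aside, 224 genes met these limits, and the 200 with the highest 168 h mean were kept. Levels at 4, 24, 32, 96 and 168 h are therefore descriptions here, while those at 48, 72 and 120 h entered the choice only by lying below 168 h.

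Schmidtea polychroa is a freshwater planarian of a sexual laboratory population that lays egg capsules, or cocoons. RNA was extracted from whole cocoons kept at 20 °C, on the first days at 4, 24 and 32 h after deposition, then daily at 48, 72, 96 and 120 h, and last at 168 h. Each of the 8 times had 3 biological replicates of 4 pooled cocoons, giving 24 stranded polyA libraries with between 1599902 and 9567933 estimated counts. No treatment or genotype distinguished the groups, only age. A library mixes embryos, yolk cells and shell contents, so a larger share of embryonic cells and more RNA of a gene per cell cannot be told apart in these values.

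In planarians of this kind the egg carries little yolk of its own. The embryo develops among many separate yolk cells packed into the cocoon, builds a temporary pharynx, swallows the yolk and only later forms the organs of the juvenile. Early messenger RNA in the cocoon is therefore to a large part deposited by the mother in eggs and yolk cells, and RNA made by the embryo appears against that background. The files pair no ID with a gene name, so functions and cell type markers cannot be given, and the label of the tissue could not be checked against markers. Of the member IDs 2 are named, both by a fixed rule, and other members are called by their place in the order of 168 h means.

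Over the 15587 genes tested, the time whose libraries were closest to a library was not its own for 12 of the 24. Among these, 48 h replicate 2 had a mean Spearman correlation, across genes, of 0.673 with the other 48 h libraries and 0.813 with those of 72 h. For 72 h replicate 3 these values were 0.680 with its own time and 0.860 with 24 h, and for 120 h replicate 1 they were 0.741 with its own time and 0.847 with 24 h. Summed over the members, the signal of 72 h replicate 3 was 1262, against 927 and 833 in replicates 1 and 2. Its median member stood at 2.50% of the 168 h mean, against 3.69% and 3.70%. In both values 48 h replicate 2 and 120 h replicate 1 lay further from their replicates. The most abundant gene of the library took 50.2% of all counts in 120 h replicate 1, with 19.3% and 23.6% in replicates 2 and 3. In 72 h replicates 1, 2 and 3 the most abundant gene took 49.7%, 47.5% and 30.7%. The 120 h replicate 1 library held 1758238 counts, and replicates 2 and 3 of 120 h held 4707170 and 4901169. The parts that depth and the most abundant gene played in the results were not tested. The 168 h libraries were alike, with mean correlations of 0.973 to 0.978.

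Together the members took up a rising share of the RNA. They held 0.0431% ± 0.00564 of the counts (SD, n = 3, as for the later times) in the 4 h libraries, 0.0430% ± 0.00346 after 24 h and 0.0371% ± 0.0130 after 32 h. The share was 0.115% ± 0.137 in the 48 h libraries and 0.0882% ± 0.00347 in those of 72 h. It then reached 0.321% ± 0.0763 by 96 h, 0.532% ± 0.411 by 120 h and 2.47% ± 0.281 by 168 h. The summed signal was between 259.9 and 371.9 in the 4 h libraries, between 2470 and 3311 at 96 h and between 17917 and 18315 at 168 h. At 48 h and at 120 h, 1 library stood apart from its replicates. At 48 h the sum was 308 and 407 in replicates 1 and 3 but 2456 in replicate 2. At 120 h it was 6639 and 6866 in replicates 2 and 3 but 703 in replicate 1, below every 96 h library and below each library of 72 h, which held 927, 833 and 1262.

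The members spanned a wide range of levels. Their 168 h means ran from 13.6 to 3246, with a median of 27.2, and 25 members had a mean of 100 or more while 111 were under 30. The 3 highest made up 31.4% of the members' summed 168 h signal, and the 20 highest made up 66.9%. At 168 h the counts behind a member, over 3 libraries, ran from 260 to 64745 with a median of 1100.5. At 96 h the median was 58 and the lowest was 11, so single members at 96 h rest on few reads. The spread between replicates at 168 h was small, with a median coefficient of variation of 10.4%, against 11.8% for the 6850 genes at 10 or more in each 168 h library. It was 31.4% at 96 h and 85.3% at 120 h, against 24.6% and 59.3% for those 6850 genes.

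**Figure D1:**
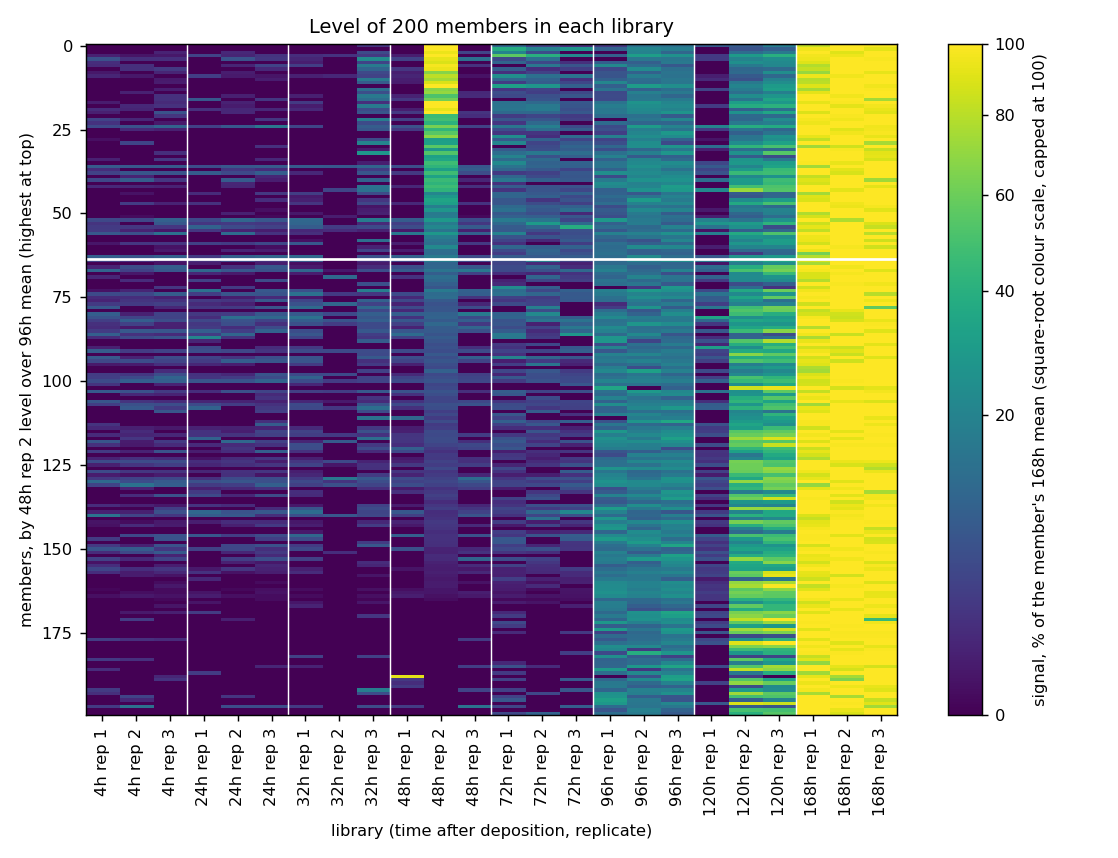
Signal of the 200 members (rows) in the 24 libraries (columns), as a percent of each member's 168 h mean, with colour capped at 100. Members are ordered by their level in 48 h replicate 2 relative to their 96 h mean, and the white horizontal line separates the 64 members at or above that mean from the other 136. The 48 h replicate 2 column is bright in the upper block and dark below, and the 120 h replicate 1 column is darker than those of replicates 2 and 3.

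Relative to its own 168 h mean, the median member stood at 0.547% in 4 h cocoons, 0.442% after 24 h and 1.19% after 32 h. It was at 3.95% by 48 h (0.370% without replicate 2), 3.67% by 72 h, 15.9% by 96 h and 23.6% by 120 h (33.4% without replicate 1). By library the medians were 13.2%, 16.8% and 17.5% at 96 h, and 1.26%, 28.6% and 36.8% in replicates 1, 2 and 3 of 120 h. Thus 120 h replicates 2 and 3 lay above the 96 h libraries and replicate 1 lay far below them. Replicates 2 and 3 of 120 h exceeded every 96 h library for 128 members, and replicate 1 was below every 96 h library for 177. Such counts of libraries, here and below, were not made over all genes. The 120 h mean was above the 96 h mean for 145 members. It was so for 66.5% of the 6850 genes at 10 or more in each 168 h library. The 168 h mean was a median of 6.31 times the 96 h mean, a ratio that the choice of members confines to the range 4.01 to 9.99. Against 120 h replicates 2 and 3 the median ratio was 3.00.

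All 200 members passed the filter on low counts, which the level demanded in each 168 h library by itself allows, whatever their counts at the times compared. The main comparison was 120 h against 72 h, the later pair of times that the choice did not use except as a ceiling. In it 58 members rose and 0 fell (edgeR's quasi-likelihood F test with an adjusted p under 0.05, by Benjamini-Hochberg over all genes, as in all calls here). Of all genes tested 9.71% were called higher at 120 h and 1.01% lower. The 58 members are 29.0% of the 200. The choice fixed a higher level at 96 h than in the first days, so 120 h and 72 h lie on either side of a rise already known. The fitted log2 fold change was positive for 181 members, with a median of 2.46 over the 200, against -0.04 over all genes. With the 21 members at 0 counts over the 72 h libraries set to the bound that 3 counts over that group allow, and 1 member at 3 counts or fewer at both times left out, the median was 2.38.

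These calls rest on the libraries used. Without 120 h replicate 1, 94 members rose, and all 58 were among them. In that fit 15.2% of all genes were called higher and 11.9% lower. Without 48 h replicate 2 the count was 66, beside 9.92%. Without both of these libraries 116 rose and 1 fell, beside 20.4% of all genes higher and 10% lower. Without 1 library of 72 h the count was 26, 17 and 38 for replicates 1, 2 and 3, and without 120 h replicate 2 or 3 it was 25 and 19, beside at most 4.71% of all genes. In a fit of the 6 libraries of these times alone, 63 members passed the filter and none was called (0 by edgeR, with 24 at an unadjusted p under 0.05), beside 0% of all genes.

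From 48 h to 72 h no member was called in either direction (0 by edgeR, and 0 by DESeq2 and by limma), where 5 had an unadjusted edgeR p under 0.05 and 0% of all genes were called. The median log2 fold change of the members was 0.00, with 96 positive and 92 negative, and -0.07 with the 26 members at 0 counts over the 48 h libraries at their bound and 45 at 3 counts or fewer at both times left out. This comparison turned on 48 h replicate 2. Without it, 4 members rose, beside 0.144% of all genes, 156 had a positive fold change, and the median was 1.94. Without 48 h replicate 2 and 120 h replicate 1 together, 24 members rose, beside 2.06% of all genes. Leaving out these 2 libraries together was chosen after they were seen to stand apart. They are the 2 that stood apart in the members' own summed signal. Over all genes 72 h replicate 3 stood apart from its time too, and it was kept in these fits.

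Over the span from 48 h to 120 h, 88 members rose and 0 fell, beside 14.8% of all genes higher and 7.67% lower. The median log2 fold change of the members was 2.50, or 2.43 with the members at 0 counts at their bound, against -0.11 over all genes. This comparison shares its 120 h libraries with the first, and 55 members were called in both. Without 48 h replicate 2, 132 members rose and 1 fell, beside 15.2% of all genes higher and 9.83% lower. Without 120 h replicate 1, 110 rose, beside 18.6% of all genes higher and 13.9% lower. Without both libraries 168 rose, beside 22.8% higher and 16.3% lower. Without 48 h replicate 1 or 3, or without 120 h replicate 2 or 3, the count was 45, 49, 49 and 45, beside 5.23% to 6.07% of all genes, and in a fit of the 6 libraries alone it was 0, with 33 of 104 members tested at an unadjusted p under 0.05.

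**Figure D2:**
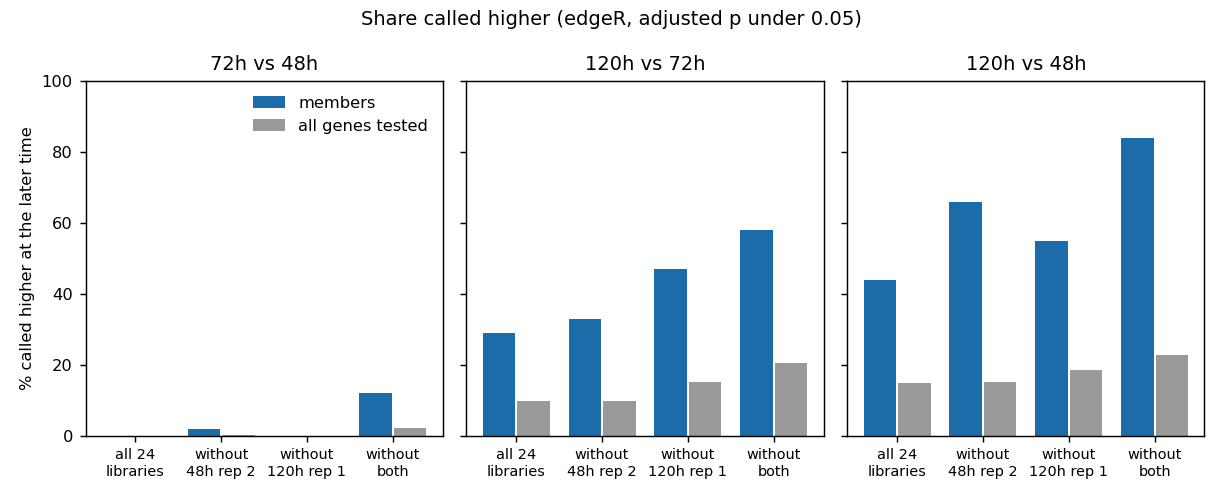
Percent of the 200 members (blue) and of all genes tested (grey) called higher at the later time, in 3 comparisons, with all 24 libraries and without 48 h replicate 2, without 120 h replicate 1 or without both. With all libraries 29.0% of members were called at 120 h against 72 h and 44.0% at 120 h against 48 h, and none at 72 h against 48 h.

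The comparisons that the choice of members used are given as descriptions. At 168 h against 4 h all 200 were called higher, beside 31.9% of all genes, and at 168 h against 72 h 162 were, beside 23.7% of all genes. At 168 h against 96 h 32 members were called higher, beside 9.12%, and at 168 h against 120 h 13 were, beside 5.25%. Their median log2 fold changes were 2.42 and 1.84. At 96 h against 72 h 35 were called, beside 9.14%, and at 120 h against 96 h none was (0 by edgeR, with 2 at an unadjusted p under 0.05), beside 0%. The signal of every 168 h library exceeded that of every 96 h library for each of the 200 members. It exceeded that of every 120 h library for 194. The choice of members favoured both counts, as it held the 96 h mean well below the 168 h mean and allowed no higher mean than that of 168 h. Neither count was made over all genes, so they do not set the members apart.

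The member with the highest 168 h level was TRINITY_DN227344_c0_g2, with 2 isoforms in the table. Its signal was 366, 384 and 438 in the 96 h libraries, 78.9, 1273 and 1405 in 120 h replicates 1, 2 and 3, and 3129, 3032 and 3578 in the 168 h libraries. In the earlier libraries it was at most 4.78, a value found in 72 h replicate 3. Its libraries did not overlap between 96 h and 168 h, and 120 h replicate 1 was the only 120 h library below those of 96 h. It rose by 8.19 on the log2 scale at 120 h against 72 h (SE 1.17, edgeR, adjusted p = 0.00186). Behind this stood 9745 counts at 120 h and 10 at 72 h. The adjusted p passed the threshold in all other fits but that of 6 libraries, and the fold change lay between 7.82 and 8.75 with 1 library left out.

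TRINITY_DN217227_c0_g1, the third by 168 h level and the next that was called, had a shallower course. Its signal was 74.0, 22.9 and 16.3 at 4 h, between 8.40 and 11.3 at 24 h, and 26.1, 38.1 and 43.9 at 72 h. It was then 102, 172 and 182 at 96 h, 18.9, 439 and 345 at 120 h, and 1214, 952 and 919 at 168 h. Its values at 168 h lay above all others, and 120 h replicate 1 lay below the 72 h libraries. It rose by 2.60 on the log2 scale at 120 h against 72 h (SE 0.68, edgeR, adjusted p = 0.0203). The call was lost without any 1 of the 72 h libraries, without 120 h replicate 2 or 3, in limma and in the fit of 6 libraries, with fold changes between 2.00 and 2.85.

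Other high members had a late course too. The sixth member had a signal of at most 2.86 up to 72 h, then 121, 92.4 and 127 at 96 h, 10.8, 288 and 354 at 120 h, and 465, 564 and 519 at 168 h. It rose at 120 h against 72 h by 6.77 on the log2 scale (SE 0.97, edgeR, adjusted p = 0.00186). The eighth member was already listed in every early library, at 4.90 to 22.7 up to 72 h. It reached 86.6, 104 and 119 at 96 h, 26.9, 275 and 298 at 120 h and 449, 489 and 463 at 168 h (log2 fold change 3.67 at 120 h against 72 h, SE 0.51, edgeR, adjusted p = 0.00186). There were 6 members listed at 0 in all 15 libraries up to 72 h and in 120 h replicate 1. Of these, place 35 had 25.7 and 29.8 in 120 h replicates 2 and 3, and place 98 had 20.4 and 23.4. In 5 of the 6, both of these libraries were above every 96 h library, while place 105 had at most 1.61 in them and 3.21, 3.32 and 3.83 at 96 h. With 120 h replicate 1 left aside, another member came closest to its 168 h level by 120 h. It had 20.0 and 22.5 in replicates 2 and 3 of 120 h, and 23.6, 20.1 and 22.8 at 168 h. With replicate 1 included, no member's 120 h mean exceeded 66.0% of its 168 h mean.

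A second course was seen among the members, with RNA present by 72 h. With all 24 libraries in the fit, these members were not called at 120 h against 72 h. The fourth member was listed at 0 in 48 h replicates 1 and 3 and at 174 in 48 h replicate 2. It had 86.8, 69.4 and 76.8 at 72 h, 96.0, 180 and 167 at 96 h, 5.32, 159 and 158 at 120 h, and 907, 757 and 673 at 168 h. Its level in 48 h replicate 2 was thus above each 72 h library and close to those of 96 h. At 120 h against 72 h it was not called, with a fitted log2 fold change of 0.19 (SE 1.24, edgeR, adjusted p = 0.931). The fifth member had 147 in 48 h replicate 2 and 0 in replicates 1 and 3, with 73.4, 41.1 and 69.2 at 72 h and 2.83, 96.2 and 107 at 120 h. Likewise, the seventh had 93.8 in 48 h replicate 2 and 0 in the others, with 59.4, 43.9 and 48.5 at 72 h and 0, 76.9 and 60.2 at 120 h. At 168 h these members had 576, 540 and 490, and 556, 479 and 494.

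**Figure D3:**
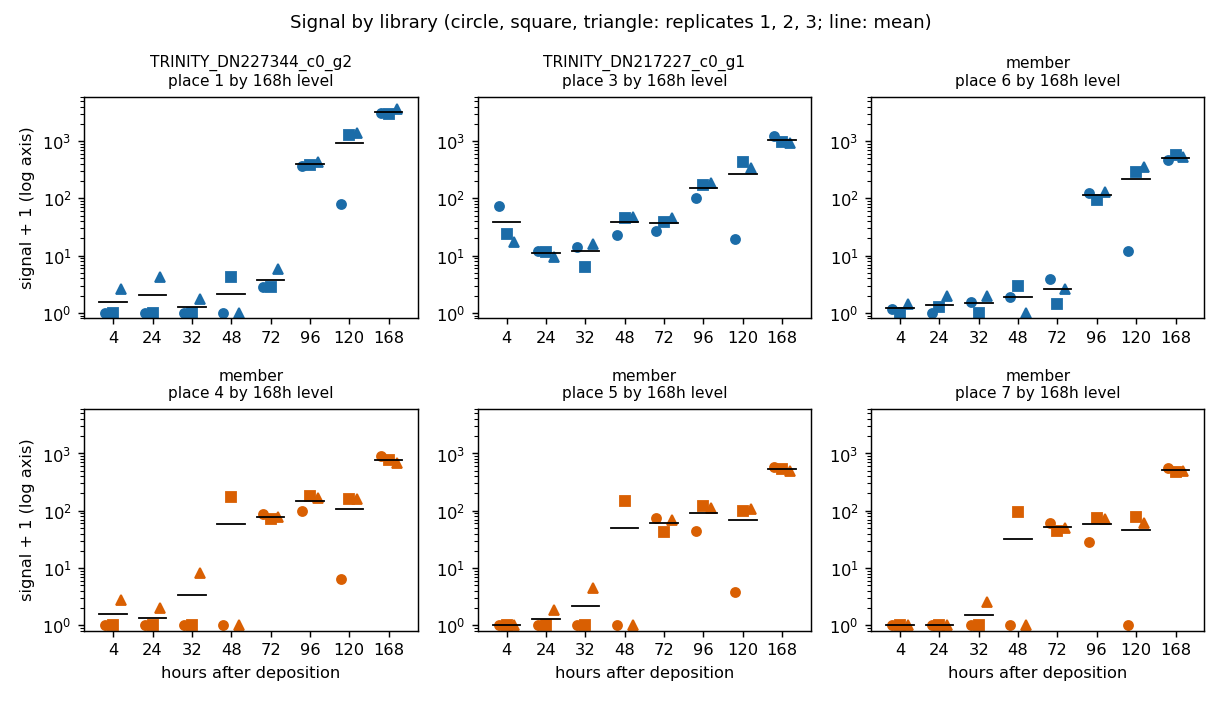
Signal plus 1 on a log axis in each of the 24 libraries for 6 of the 7 members of highest 168 h level, with replicates as circles, squares and triangles and the mean as a line. In the upper row places 1 and 6 are at 4.78 or less to 72 h and place 3 is at 5.29 to 74.0, and the lower row (places 4, 5 and 7) is at 0 in 48 h replicates 1 and 3, at 93.8 to 174 in replicate 2, and at 41.1 to 86.8 in the 72 h libraries.

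To describe how far this second course extended, the members were divided at the point where 48 h replicate 2 reached the 96 h mean. This split was made after the values were seen and uses 48 h replicate 2, so it carries no test. There were 64 members at or above that point and 136 below. The 64 had a median level of 44.6% of the 168 h mean in 48 h replicate 2 and 0% in both other 48 h libraries. They stood at 9.13%, 7.71% and 6.46% in the 72 h libraries, at 9.84%, 18.8% and 16.0% at 96 h, and at 0%, 19.0% and 24.4% in 120 h replicates 1, 2 and 3. For 62 of the 64, 48 h replicate 2 was above every 72 h library. For 43 of the 64, each 72 h library was above 48 h replicates 1 and 3. The split thus does not follow RNA at 72 h alone. TRINITY_DN217227_c0_g1, with 26.1 to 43.9 in the 72 h libraries, was among the 136. Places 2 and 10 were among the 64 though present from 4 h, at 34.9 to 41.9 and 31.4 to 35.2.

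The other 136 members had a median of 2.83% in 48 h replicate 2, and 2.50%, 1.48% and 0.840% in the 72 h libraries. They stood at 15.7%, 15.9% and 18.3% at 96 h, and at 2.37%, 38.2% and 43.7% in 120 h replicates 1, 2 and 3. For the 96 h mean, which the choice confines, the medians of the 64 and the 136 were 14.1% and 16.3%. In 96 h replicate 1 alone they were 9.84% and 15.7%. In the 72 h libraries and in 120 h replicates 2 and 3 they were further apart than for the 96 h mean. Replicates 2 and 3 of 120 h exceeded every 96 h library for 22 of the 64 and for 106 of the 136. Of the 58 members called higher at 120 h than at 72 h, 0 were among the 64 and 58 among the 136. The median log2 fold change was 0.73 in the first block and 3.38 in the second. Without 120 h replicate 1 the calls were 3 and 91, and without 48 h replicate 2 they were 2 and 64. Without both libraries they were 10 and 107, in either direction. The shares of all genes in these fits are given above. All times share 1 estimate of the spread per gene, and 48 h replicate 2 enters it. The split is therefore not independent of the calls with all libraries. At 72 h against 48 h without 48 h replicate 2, the 4 members that rose were all among the 64, where the median log2 fold change was 4.69, and 1.07 among the 136. In 48 h replicates 1 and 3, 38 and 41 of the 64 and 71 and 80 of the 136 were listed at 0. No bound was set for them here, so the size of these medians is uncertain.

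**Figure D4:**
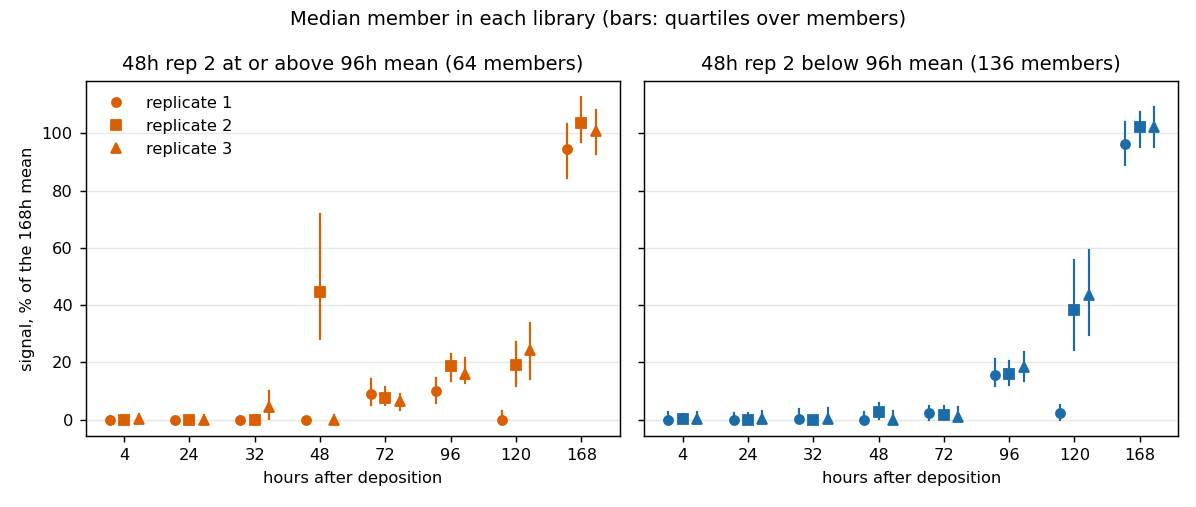
Median level of the 64 members whose 48 h replicate 2 reached their 96 h mean (left) and of the other 136 (right), as a percent of the 168 h mean, in each library at 8 times, with bars for the quartiles over members. At 120 h replicates 2 and 3 stood at 19.0% and 24.4% on the left and at 38.2% and 43.7% on the right.

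**Figure D5:**
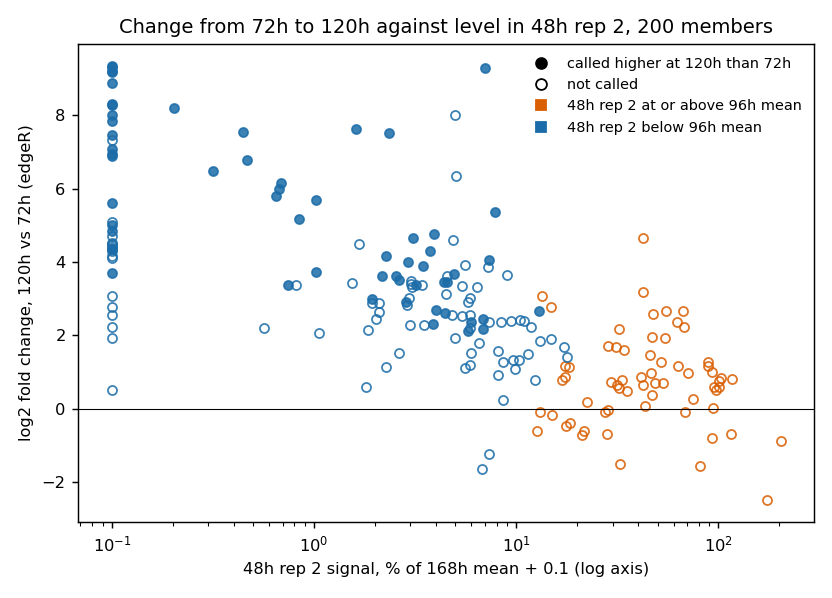
Log2 fold change at 120 h against 72 h (edgeR) of the 200 members against their signal in 48 h replicate 2, as a percent of the 168 h mean plus 0.1 on a log axis, with filled points for the 58 called higher. The filled points all lie among the 136 members (blue) whose 48 h replicate 2 was below their 96 h mean.

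Some members had a higher mean before 96 h than at it. The 48 h mean was at or above the 96 h mean for 29 members, and for 1 without 48 h replicate 2. The 72 h mean was at or above the 96 h mean for 8 members. The second member by level had 116, 158 and 550 at 72 h, 182, 167 and 280 at 96 h, 204, 359 and 74.6 at 120 h and 1316, 1763 and 1180 at 168 h, with libraries of 72, 96 and 120 h overlapping. It was also present from the start, at 41.9, 36.8 and 34.9 at 4 h. The member at place 21 had 140.5 in 48 h replicate 2, 42.6, 23.8 and 25.3 at 72 h, and 1.18, 13.9 and 19.9 at 120 h. Place 62 had 38.2, 44.7 and 36.5 at 168 h and 68.8 in 48 h replicate 2, so that this 1 library at 48 h was above each 168 h library. Neither was called at 120 h against 72 h, with log2 fold changes of -1.57 (SE 1.17, edgeR, adjusted p = 0.355) and -2.50 (SE 1.53, edgeR, adjusted p = 0.268).

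At 4 h 62 of the 200 members had 0 counts over the 3 libraries, which allows up to 0.210 CPM of the group's total, and 102 had 3 counts or fewer. The number at 0 counts was 72 after 24 h, 57 after 32 h, 26 by 48 h and 21 by 72 h, and none was at 0 by 96 h, where the choice demands a signal. Such limits cover counting error only. Members with a trace in 1 library of an early time fell unevenly on the replicates: 45 were above 0 in 32 h replicate 3 alone, 20 in replicate 1 alone and 3 in replicate 2 alone. Of the 64 members high in 48 h replicate 2, 48 were above 0 in 32 h replicate 3, against 25 and 7 in replicates 1 and 2 of that time. The order was the same over all 200 members, with 118 above 0 in replicate 3, 94 in replicate 1 and 29 in replicate 2.

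The isoform structure of the members was not used to choose them. Of the 200, 74 (37.0%) had a single isoform in the table, against 22.9% of the 6850 genes at 10 or more in each 168 h library, with medians of 2 and 3 isoforms. In the other 126 members the main isoform held a median of 79.9% of the gene's counts at 168 h, and 90% or more in 45. The main isoform at 168 h was also the main one at 120 h in 104 of 120 members with 20 or more counts then, and at 96 h in 88 of 117. Counts per unit of signal, a fixed factor for each transcript, were a median of 1.04 times those of the median gene of that set. There were 2 assembler components that held 2 members each, so those 4 members may share sequence, and reads may have been split between them or with other genes of a component, as 85 members have such neighbours in the table.

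Close to its limits the choice was a matter of degree. The 96 h share ran from 10.01% to 24.9% inside, and the nearest genes outside stood at 9.95% and 25.2%. With the same other limits 586 genes had a 96 h share at or under 0.1 and 287 had one at or over 0.25. The 200th member had a 168 h mean of 13.63, and the first of the 24 genes left out had 13.61. With 1 library of 96 h left out, 165 to 178 of the 200 members still met the limits, and with 1 of 168 h 186 to 192 did. With levels as CPM from the counts, 243 genes met the limits, and 170 of the 200 members were among them.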

How the data were processed

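The authors deposited RSEM expected counts per assembled transcript, unnormalised per the file headers, and a table of TMM-scaled signal per transcript, whose underlying unit is not stated. Per the submitters' processing notes, reads and tables went through Trimmomatic 0.32 and FastQC 0.11.2, then RSEM, with edgeR 3.40.2 and limma 3.54.2 under R 4.2.2. The aligner is not given in the sources used here. Counts per unit of signal were constant over libraries for a transcript (median SD of 0.00325 on the log2 scale, against 0.77 between transcripts), so signal is the count scaled by a fixed factor per transcript and 1 per library.

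Both tables were summed per assembler gene, the ID without its isoform number. The members and lists were chosen with earlier results of these data known. Summed counts were rounded, filtered with filterByExpr and tested in 1 model of 8 times by glmQLFit and glmQLFTest after TMM scaling (edgeR 4.0.16, R 4.3.3). Standard errors were back-calculated from the F statistic. Of 22365 genes 15587 were tested. Libraries held 1599902 to 9567933 counts, so a floor of 3 counts over a time is 0.135 to 0.431 CPM. Replicates of a time differed by at least 9.85 in chi-square per degree of freedom, so each was counted as its own sample. The named IDs are the member of highest 168 h level and the next one called higher at 120 h than at 72 h. Members called lower would also have been named, but there were none. Alternatives used DESeq2 1.42.0, limma 3.58.1 on log2(signal + 1), other filters and scalings, 6 libraries, a replicate block, an adjusted p under 0.01 and each library left out. The test and the choice of members were tried on simulated data first.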

Additional observations from a re-analysis of the deposited data

How the results depend on the processing

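The number of genes meeting the limits was 224. It was 127 with bounds of 0.12 and 0.20 at 96 h, lay between 206 and 232 with 1 library left out, and stayed within 1.5 times of 224 in the other settings. At 120 h against 72 h the 58 called members became 21 at an adjusted p under 0.01 (beside 2.8% of all genes higher), 0 with the 6 libraries alone and 17 to 94 with 1 library left out. The median log2 fold change was 2.46, 1.00 with the 6 libraries alone and 2.08 to 2.68 with 1 left out. At 120 h against 48 h the 88 calls became 39 at an adjusted p under 0.01 (beside 6.29% of all genes higher and 1.5% lower), 0 with the 6 libraries alone and 45 to 133 with 1 library left out. At 72 h against 48 h the 0 calls became 0 to 4 with 1 library left out, and the median of 0.00 became -0.16 to 1.94. Without 48 h replicate 2 and 120 h replicate 1 together, a setting chosen after the data were seen, edgeR called 117, 24 and 168 members in these comparisons (120 h against 72 h, 72 h against 48 h, 120 h against 48 h) and DESeq2 129, 40 and 177. The shares of all genes called higher rose too, to 20.4%, 2.06% and 22.8% with edgeR and 21.7%, 6.53% and 25.8% with DESeq2, with 16.2%, 1.54% and 17.6% lower in DESeq2. The median at 72 h against 48 h was then 1.94 with edgeR and 1.72 with DESeq2. The cause of these shifts was not tested. The 6-library fits also held fewer libraries and fewer members that passed the filter. DESeq2's size factors moved the median over all genes at 72 h against 48 h to 0.05, against -0.08 with TMM, and that of the members to 0.17.

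With the replicate number as a replicate block, 43, 0 and 76 members were called in these comparisons, each also called without it, beside 7%, 0% and 12% of all genes higher. The correlations of deviations between same-numbered libraries were of both signs, at -0.18, -0.35 and -0.42 for 120 h and 72 h, -0.37, 0.36 and 0.12 for 72 h and 48 h, and 0.32, 0.20 and -0.10 for 120 h and 48 h. Since not every one was over 0.1, the numbers were not taken to pair the samples. Members with under 20 counts at 96 h or 120 h are limited by depth.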

Other observations

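The member at place 162 was chosen on few libraries. It had a signal of 16.2 in 48 h replicate 1 and 0 in the other 48 h libraries, 0, 1.09 and 5.54 at 96 h, 0, 0.503 and 0 at 120 h and 16.4, 13.3 and 23.5 at 168 h. Its level in 48 h replicate 1 was thus within the range of its 168 h libraries, and its 96 h mean came mostly from replicate 3.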
